A study of Homo sapiens with 26 samples.

Results

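The enzymes that turn glucose into pyruvate and lactate, that pass pyruvate to the mitochondria and that store glucose as glycogen were followed in 16HBE cells, an immortalised line of human bronchial epithelial cells. The set was fixed by name, with earlier results of these data known, and holds 38 of the 58735 genes in the count table, each with 1 row. Shares of called members set beside those of all genes are therefore descriptive. All 38 had at least 1 count, and 37 passed the filter on low counts in every fit. The exception was PDK4, with 12 counts over the 26 libraries. The cells were CF cells (16HBEge, genotype DeltaF508 CFTR) in high glucose (17.5 mM, 6 libraries) or normal glucose (5.5 mM, 6 libraries), and WT cells (16HBE14o-, WT CFTR) in high glucose (5 libraries) or normal glucose (6 libraries). A further 3 libraries, WT in 5.5 mM glucose as well, carry the label not polarized. CFTR is the apical chloride and bicarbonate channel whose loss causes cystic fibrosis. Cells were plated on Transwell filters at 250000 per well and kept 7 days with daily medium changes, and each sample pooled 2 Transwells. Each genotype is a single cell line, so genotype and other differences between the lines cannot be told apart. These culture details are stated alike for all 26 libraries, and how the culture of the unpolarized cells differed is not given beyond that label. Nothing in the labels tells whether replicate libraries are separate cultures, and p-values therefore reflect only the spread over the libraries at hand, which may be technical.

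In glycolysis, hexokinases trap glucose as glucose 6-phosphate, phosphofructokinase makes the first committed step, and the enzymes from aldolase to pyruvate kinase yield ATP, NADH and pyruvate. PFKFB enzymes set the level of fructose 2,6-bisphosphate, the main activator of phosphofructokinase. Lactate dehydrogenase regenerates NAD+, monocarboxylate transporters carry lactate across the plasma membrane, and the mitochondrial pyruvate carrier and pyruvate dehydrogenase lead pyruvate into oxidation. Pyruvate dehydrogenase kinases switch that last enzyme off. Several of these genes, among them HK2, PFKFB3, PFKFB4, PGK1, LDHA and PDK1, are well-known targets of hypoxia-inducible factors, which bind DNA at the cores ACGTG and GCGTG.

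Libraries numbered 1 to 3 stood apart from those numbered 4 to 6 in each glucose group. Across genes, which are not independent, residuals of 2 libraries from different groups had a mean r of -0.199 (WT) and -0.219 (CF) when their numbers lay in different sets, against 0.198 and 0.212 for different numbers of the same set. Residuals were taken from each group's mean, so a positive r within sets brings a negative r between sets. The labels name no batch, so values within each set are given beside some of the named genes and beside the counts of called members. Where none is given for a gene, its call may differ between the sets. The libraries held 14658319 to 20413839 counts. Epithelial markers were high (EPCAM, CDH1 and the keratins KRT8, KRT18 and KRT19 among 7 markers whose summed level was 1479 to 1673 FPKM in CF high glucose, 1561 to 1718 in CF normal glucose, 1211 to 1310 in WT high glucose, 1269 to 1487 in WT normal glucose and 1339 to 1350 FPKM in unpolarized WT libraries). The basal markers of that list were low: group means were 5.90 to 18.6 FPKM for KRT5 and 0.0469 to 0.0792 FPKM for TP63. The 4 secretory markers summed to at most 0.185 FPKM and the 4 ciliated markers to at most 1.15 FPKM. MUC5AC and SNTN were at 0 in every library. Of the 5 fibroblast and 3 endothelial markers, COL1A1 and CDH5 held most of sums that reached 4.50 and 4.47 FPKM.

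Promoter sequence is shown for members that were lower in high glucose in CF cells, because these genes moved together there. Of the 9 such members, the 7 with a stretch of at least 100 bases outside exons are printed. The windows are the 250 bases before the RefSeq start (GRCh38.p14), and the printed stretch leaves out exons of protein-coding genes in GENCODE 29. The windows of PFKP, PGK1 and GAPDH lie inside the annotated gene, which begins upstream at chr10:3066333, chrX:77910739 and chr12:6533927. Sequence before those outermost starts was not examined. Capitals mark ACGTG or GCGTG on either strand (CACGT and CACGC when read on the other strand), and CACGTG holds ACGTG once on each strand. HK2, PFKL and PDK1 were called lower in high glucose in both lines, and the other 4 were called in CF cells only. A call in CF cells only is not a difference between the lines. GAPDH, for example, had a log2 fold change of -0.20 in WT and -0.17 in CF cells. No member was called for a difference in response between the lines in the main fit.
HK2, chr2:74833877-74833980, plus strand: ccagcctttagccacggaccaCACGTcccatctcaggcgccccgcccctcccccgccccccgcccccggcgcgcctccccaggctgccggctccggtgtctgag
PFKL, chr21:44299803-44300050, plus strand: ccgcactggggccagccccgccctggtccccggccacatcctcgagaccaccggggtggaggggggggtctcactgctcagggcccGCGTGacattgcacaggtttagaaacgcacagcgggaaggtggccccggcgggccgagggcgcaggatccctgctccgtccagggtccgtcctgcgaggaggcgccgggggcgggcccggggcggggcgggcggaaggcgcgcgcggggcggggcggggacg
PDK1, chr2:172555123-172555372, plus strand: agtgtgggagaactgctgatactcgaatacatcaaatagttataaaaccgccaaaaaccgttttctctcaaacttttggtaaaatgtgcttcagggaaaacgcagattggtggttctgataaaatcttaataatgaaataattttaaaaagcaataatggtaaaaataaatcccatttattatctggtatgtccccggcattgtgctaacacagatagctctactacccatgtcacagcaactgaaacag
PFKP, chr10:3067720-3067969, plus strand: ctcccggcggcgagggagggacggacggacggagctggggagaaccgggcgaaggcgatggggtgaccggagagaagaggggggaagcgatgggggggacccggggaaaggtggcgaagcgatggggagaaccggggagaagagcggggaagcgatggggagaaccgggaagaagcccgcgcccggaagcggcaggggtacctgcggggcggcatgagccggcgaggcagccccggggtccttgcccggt
PFKFB3, chr10:6144671-6144920, plus strand: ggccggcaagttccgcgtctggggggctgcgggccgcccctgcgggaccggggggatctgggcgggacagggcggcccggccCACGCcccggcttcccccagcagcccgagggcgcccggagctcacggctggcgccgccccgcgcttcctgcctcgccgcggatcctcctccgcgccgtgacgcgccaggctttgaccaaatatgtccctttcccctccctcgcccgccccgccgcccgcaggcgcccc
PGK1, chrX:78103998-78104173, plus strand: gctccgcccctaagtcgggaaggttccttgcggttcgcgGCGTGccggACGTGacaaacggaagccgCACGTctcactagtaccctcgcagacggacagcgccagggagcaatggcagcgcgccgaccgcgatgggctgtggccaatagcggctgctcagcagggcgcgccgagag
GAPDH, chr12:6535142-6535263, plus strand: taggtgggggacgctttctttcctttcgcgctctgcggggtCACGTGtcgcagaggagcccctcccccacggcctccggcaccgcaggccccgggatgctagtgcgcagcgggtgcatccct
HK2, PGK1 and GAPDH hold ACGTG in the printed stretch, PFKL, PFKFB3 and PGK1 hold GCGTG, and PFKP and PDK1 hold neither. The windows of PFKFB4, the fourth gene lower in both lines, and of GPI lie mostly or wholly in annotated exons and are not printed. Of the 38 members, 35 had a RefSeq window. ACGTG was found in 12 of these 35 windows (34.3%), against 18.5% of all 35116 windows of that length, and GCGTG in 14 (40.0%), against 32.2%. CACGTG, which is also the E-box bound by MYC and other factors, was in 5 of the 35 (14.3%), against 6.34% of all windows. Repeat windows of a gene were left out for members but not among the 35116, which were not limited to tested genes either. The shares are thus of unlike sets and are descriptive. The whole windows of PDK1 and PFKP held neither core. In the deposited annotation (hg38) the 4 genes are HK2 (ENSG00000159399) at chr2:74833981-74893359, PFKL (ENSG00000141959) at chr21:44300051-44327376, PFKFB4 (ENSG00000114268) at chr3:48517684-48562015 and PDK1 (ENSG00000152256) at chr2:172555373-172608669, all protein-coding. A match is a letter string and not a binding site, and no match says only that the letters are not in this window.

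Levels between genes are compared per length, as the FPKM values in the authors' deposited table, in WT cells in normal glucose. GAPDH, which oxidises glyceraldehyde 3-phosphate, was the most abundant member at 991 ± 53.8 FPKM (SD, n = 6). The triose phosphate isomerase TPI1 (417 ± 49.2 FPKM), the enolase ENO1 (392 ± 19.8 FPKM), LDHA (237 ± 14.6 FPKM), the pyruvate kinase PKM (216 ± 13.3 FPKM) and the phosphoglycerate kinase PGK1 (139.6 ± 11.4 FPKM) followed. HK2 stood at 63.5 ± 10.4 FPKM, above HK1 at 16.5 ± 2.06 FPKM. PFKP (50.6 ± 1.498 FPKM) and PFKL (49.9 ± 1.48 FPKM) were at levels within their spread, and the muscle isoform PFKM was at 5.87 ± 0.512 FPKM. ALDOA stood at only 5.05 ± 0.442 FPKM, but 42.3% of its exonic bases are shared, on the same strand, with the gene AC093512.2. The counting of reads in shared bases is not given in the sources used here. The level of ALDOA, of TIGAR (42.6% shared with AC008012.1) and of LDHB (33.4% shared with AC010197.2) is therefore uncertain. On the opposite strand, PDK2 shares 38.6% of its exonic bases with SAMD14, MPC2 22.5% with DCAF6, PDHA1 21.3% with MAP3K15 and ENO3 2.59% with PFN1. DCAF6 had 34134 counts over the 26 libraries, against 16667 for MPC2, and PFN1 had 173068, against 2627 for ENO3. The strand setting is likewise not given, so the levels of these genes are uncertain too.

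In CF cells, high glucose went with lower HK2, 3 of 7 upper glycolysis members (GPI, PFKL and PFKP), 2 of 7 lower glycolysis members (GAPDH and PGK1), PFKFB3, PFKFB4 and PDK1, and with higher PYGB. Of the 37 members tested, 9 fell and 1 rose (edgeR quasi-likelihood test, Benjamini-Hochberg adjusted over 16338 genes), a total of 27.0% of members where 8.41% of all genes were called and 4.14% were called lower. The count was 9 in libraries 1 to 3 alone (2 higher, 7 lower), 16 in libraries 4 to 6 alone (all lower) and 15 with a term for the set of library numbers (2 higher, 13 lower). The median log2 fold change was -0.04 over members and 0.00 over all genes. HK2, the inducible hexokinase that docks on mitochondria, had 198 to 292 CPM (median 226) in CF high glucose, against 498 to 863 CPM (median 675) in CF normal glucose. Every high glucose library lay below every normal glucose library, and HK2 was 2.91-fold lower (log2 fold change -1.54, SE 0.14, adjusted p = 1.98e-07). The fold change was -1.28 in libraries 1 to 3 alone and -1.75 in libraries 4 to 6 alone, and both were called. In bulk RNA, fewer cells that express a gene and less RNA per cell cannot be told apart, and CPM are shares of a library, not amounts per cell. Its constitutive relative HK1 had 123 to 143 CPM (median 128) in CF high glucose, against 109 to 158 CPM (median 123) in CF normal glucose (log2 0.01, adjusted p = 0.966).

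Among the kinases that make fructose 2,6-bisphosphate, PFKFB4 had 19.99 to 34.6 CPM (median 24.2) in CF high glucose, against 33.6 to 48.6 CPM (median 44.5) in CF normal glucose (log2 fold change -0.75, SE 0.12, adjusted p = 0.000164). The 2 groups overlapped at a single point, high glucose library 5, which lay above normal glucose libraries 1 and 3. PFKFB3, the isoform with the highest kinase to phosphatase activity, had 29.2 to 38.3 CPM (median 32.2) in CF high glucose, against 39.7 to 79.8 CPM (median 54.2) in CF normal glucose (log2 fold change -0.81, SE 0.17, adjusted p = 0.00444). The normal glucose libraries fell into the 2 sets, with 65.6 to 79.8 CPM in libraries 4 to 6 and 39.7 to 42.9 CPM in libraries 1 to 3, and the fold change was -1.07 in libraries 4 to 6 alone (adjusted p = 2.30e-11, edgeR) and -0.45 in libraries 1 to 3 alone (adjusted p = 0.00585). PFKFB2 had 33.7 to 39.4 CPM (median 37.1) in CF high glucose, against 32.9 to 42.5 CPM (median 36.7) in CF normal glucose (log2 -0.03, adjusted p = 0.913).

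PDK1, which phosphorylates and inactivates pyruvate dehydrogenase, had 73.96 to 85.1 CPM (median 78.9) in CF high glucose, against 107 to 131 CPM (median 119) in CF normal glucose, with no overlap (log2 fold change -0.59, SE 0.06, adjusted p = 2.15e-06). The fold change was -0.59 in libraries 1 to 3 alone and -0.61 in libraries 4 to 6 alone. The other tested kinases, PDK2 (log2 0.14, adjusted p = 0.281) and PDK3 (log2 -0.04, adjusted p = 0.871), were not called. PDK4 had at most 2 counts in any library.

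The remaining CF calls were small in size. PFKL, the liver-type phosphofructokinase, had 358 to 397 CPM (median 382) in CF high glucose, against 406 to 471 CPM (median 457) in CF normal glucose, without overlap (log2 fold change -0.24, SE 0.04, adjusted p = 0.000858). The platelet-type PFKP had 208 to 239 CPM (median 232) in CF high glucose, against 235 to 289.5 CPM (median 274) in CF normal glucose (log2 fold change -0.23, SE 0.05, adjusted p = 0.00641), and was not called in libraries 1 to 3 alone (adjusted p = 0.119, edgeR). PGK1 had 671 to 854 CPM (median 766) in CF high glucose, against 860.1 to 954 CPM (median 899.5) in CF normal glucose (log2 fold change -0.25, SE 0.07, adjusted p = 0.027). It kept to separate ranges, but its call was lost without CF high glucose library 6 (adjusted p = 0.0735, edgeR). GPI, the glucose 6-phosphate isomerase, had 256 to 305 CPM (median 276) in CF high glucose, against 286 to 382 CPM (median 318) in CF normal glucose (log2 -0.22, adjusted p = 0.0434). GAPDH had 3342 to 3902 CPM (median 3503) in CF high glucose, against 3641 to 4244 CPM (median 4032) in CF normal glucose (log2 -0.17, adjusted p = 0.0478). Both calls depended on single libraries. GPI was not called without high glucose library 1, 2, 3 or 6 or normal glucose library 4, 5 or 6 (adjusted p up to 0.129, edgeR), and GAPDH was called only without high glucose library 3 or normal glucose library 4 among these 12 fits (adjusted p up to 0.111 in the others). Of the 37 members tested, 6 had ranges that did not overlap between the CF groups, where 4.68% of all genes did so.

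The single member that rose was PYGB, the brain-type glycogen phosphorylase, which releases glucose 1-phosphate from glycogen. It had 93.9 to 111 CPM (median 102) in CF high glucose, against 76.4 to 91.6 CPM (median 84.9) in CF normal glucose, without overlap (log2 fold change 0.27, SE 0.06, adjusted p = 0.005). Its fold change was 0.36 in libraries 1 to 3 alone and 0.16 in libraries 4 to 6 alone, where it was not called (adjusted p = 0.065, edgeR). The liver-type PYGL had 165 to 171 CPM (median 169) in CF high glucose, against 157 to 186 CPM (median 165) in CF normal glucose (log2 0.00, adjusted p = 0.984), and the glycogen synthase GYS1 was not called (log2 -0.11, adjusted p = 0.488). None of the 4 lactate genes was called: LDHA had log2 -0.18, adjusted p = 0.0731, LDHB log2 0.02, adjusted p = 0.948, SLC16A1 log2 0.22, adjusted p = 0.262 and SLC16A3 log2 -0.10, adjusted p = 0.51 (edgeR).

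In WT cells, HK2, PFKL, PFKFB4 and PDK1 were lower in high glucose and PDP1 was higher. Of the 37 members, 4 fell and 1 rose (13.5% of members, where 2.95% of all genes were called and 1.46% were called lower). This count moved with the treatment of the library sets: it was 12 with a term for the set (4 higher, 8 lower), 2 in libraries 1 to 3 alone (both lower) and 10 in libraries 4 to 6 alone (2 higher, 8 lower), and 9 with a block for the replicate number. The median log2 fold change was -0.08 over members and 0.00 over all genes. HK2 had 163, 225, 199, 212 and 231 CPM in WT high glucose, against 313 to 479 CPM (median 392) in WT normal glucose. The groups did not overlap, and HK2 was 1.88-fold lower (log2 fold change -0.91, SE 0.14, adjusted p = 0.000811). PFKL had 381, 385, 371, 357 and 383 CPM in WT high glucose, against 433 to 467 CPM (median 449) in WT normal glucose, again without overlap (log2 fold change -0.26, SE 0.05, adjusted p = 0.00241). PDK1 had 66.5, 79.9, 76.7, 62.7 and 70.5 CPM in WT high glucose, against 81.97 to 102 CPM (median 87.1) in WT normal glucose (log2 fold change -0.32, SE 0.07, adjusted p = 0.00729). Its groups did not overlap, and in libraries 1 to 3 alone it was not called (log2 -0.26, adjusted p = 0.138, edgeR).

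PFKFB4 had 20.03, 27.4, 23.2, 19.7 and 21.6 CPM in WT high glucose, against 26.9 to 34.5 CPM (median 31.4) in WT normal glucose (log2 fold change -0.48, SE 0.12, adjusted p = 0.0317). High glucose library 2 lay above the lowest normal glucose library, and of the 11 fits that left out 1 library, the call was held only without high glucose library 2 or normal glucose library 3 (adjusted p up to 0.099 in the other 9, edgeR). PDP1, a phosphatase that switches pyruvate dehydrogenase on, was the member that rose, with 77.6, 75.6, 76.5, 78.8 and 77.2 CPM in WT high glucose, against 62.6 to 71.05 CPM (median 67.9) in WT normal glucose (log2 fold change 0.19, SE 0.05, adjusted p = 0.0476). Its groups did not overlap, but its adjusted p passed 0.05 in each of the 11 fits without 1 library (0.0539 to 0.114, edgeR). In libraries 1 to 3 alone, HK2 and PFKL were the 2 called members, so neither PFKFB4 nor PDP1 was called. PFKFB3 was not called in WT cells, with 23.96, 32.2, 28.3, 39.3 and 39.3 CPM in high glucose, against 28.6 to 50.998 CPM (median 39.4) in normal glucose (log2 -0.27, adjusted p = 0.552). Ranges did not overlap for 7 members, where 4.10% of all genes did so. These were HK2, PFKL, PDK1 and PDP1, and the uncalled PFKP (log2 -0.13, adjusted p = 0.224), ALDOA (log2 -0.37, adjusted p = 0.063) and GAPDH (log2 -0.20, adjusted p = 0.065).

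**Figure D1:**
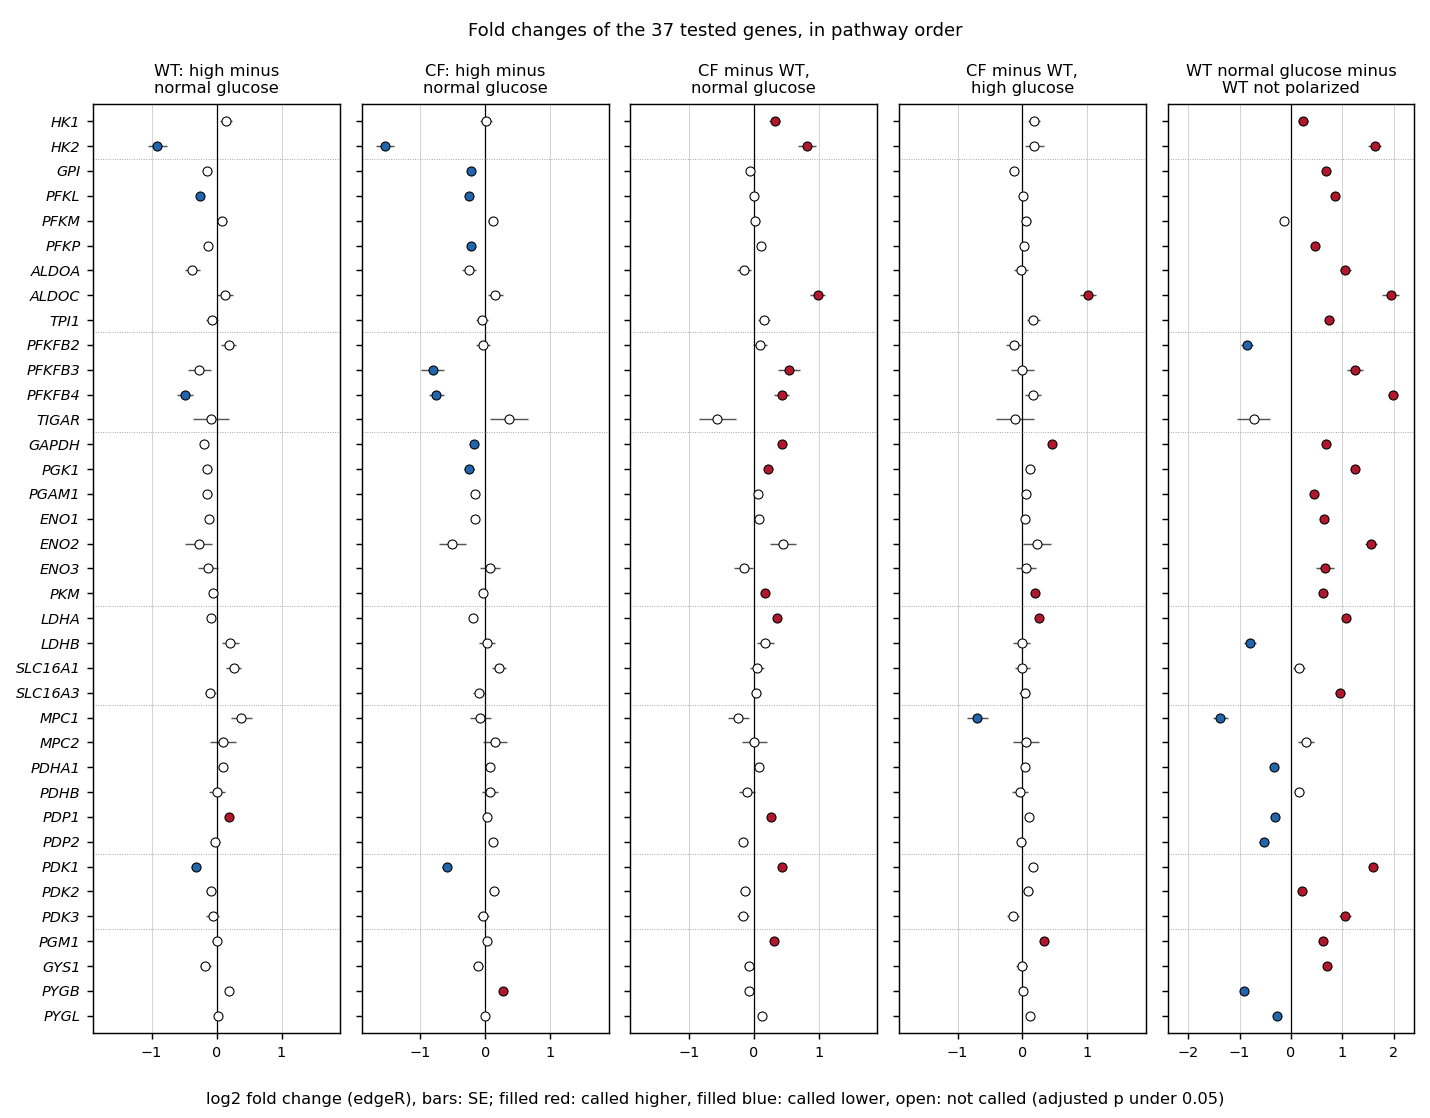
Log2 fold changes of the 37 tested genes (rows, in pathway order with dotted lines between roles) in 5 comparisons (columns), with bars for the SE and filled points for genes called at an adjusted p under 0.05 in edgeR. HK2 has the lowest point in both glucose columns, and 24 of 37 genes are filled as higher in the column of WT normal glucose minus WT not polarized.

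The response to glucose was compared between the lines with an interaction term. None of the 37 members was called (edgeR, where 0.0367% of all genes were), none was called by DESeq2, and 5 had an unadjusted p under 0.05, where 1109 of 16338 genes did. HK2 was among them, its response being -1.54 in CF cells and -0.91 in WT cells (difference -0.63, SE 0.20, adjusted p = 0.358). With a term for the set of library numbers, the difference for HK2 passed the threshold (log2 -0.65, adjusted p = 0.0336, edgeR). It was -0.78 in libraries 4 to 6 alone (adjusted p = 0.0126) and -0.50 in libraries 1 to 3 alone (adjusted p = 0.452). PFKFB3 differed by -0.54 over all libraries (adjusted p = 0.709), by -0.90 in libraries 4 to 6 (adjusted p = 1.68e-05) and by -0.19 in libraries 1 to 3 (adjusted p = 0.752, edgeR). PFKL responded by -0.24 in CF cells and -0.26 in WT cells, a difference of 0.01 (SE 0.07). The response of PDK1 was -0.59 in CF cells and -0.32 in WT cells (difference -0.27, SE 0.09, adjusted p = 0.445).

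**Figure D2:**
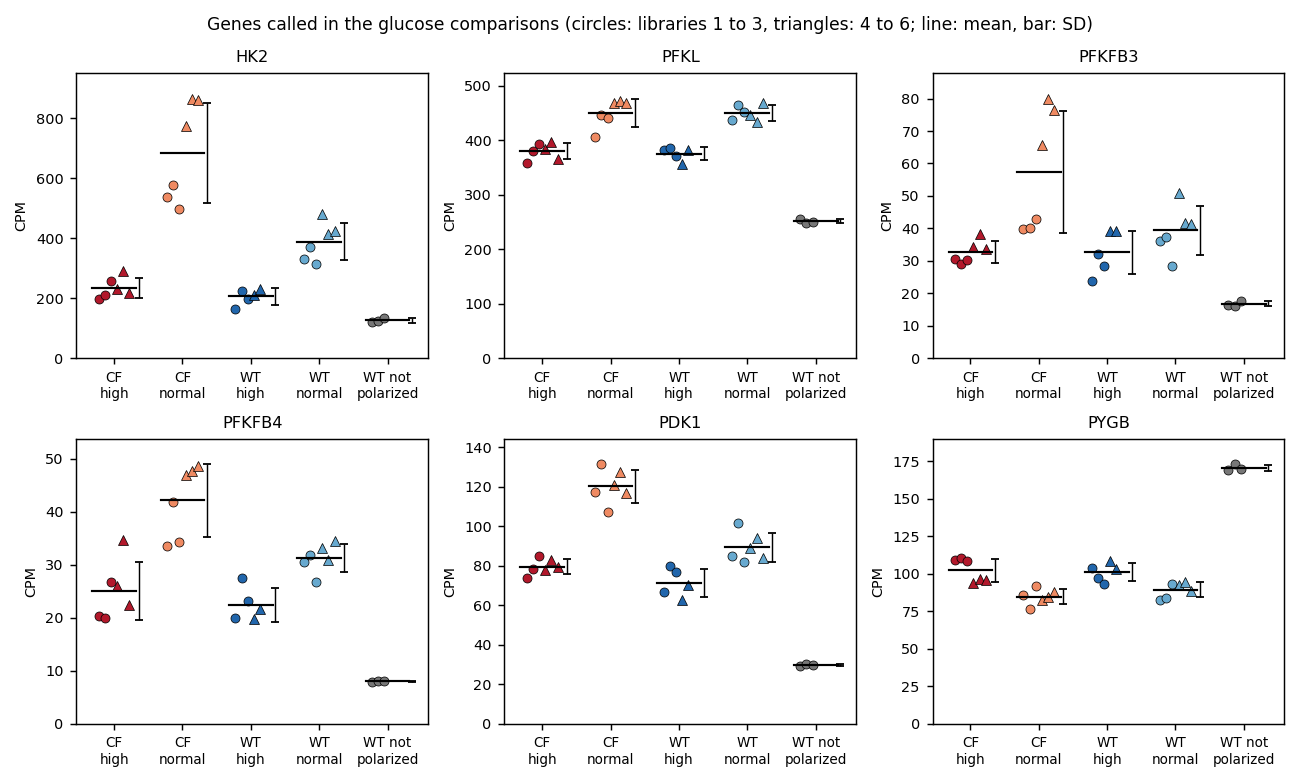
CPM (vertical axis, from 0) of 6 genes called in a glucose comparison, for each library of the 5 groups, with the mean as a line and the SD as a bar. HK2 has its highest values in CF normal glucose, where libraries 4 to 6 lie above libraries 1 to 3, and PYGB has its highest values in WT not polarized.

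Between the lines in normal glucose, the members called over all libraries were higher in CF cells. Of 37 members, 12 were higher and 0 lower in CF (edgeR), a share of 32.4% called where 24.4% of all genes were called and 11.4% were called higher. The median log2 fold change was 0.08 over members and 0.00 over all genes. The count of members lower in CF was not 0 in every alternative: in libraries 1 to 3 alone 10 were higher and 3 lower (GPI, log2 -0.18, adjusted p = 0.0276; SLC16A3, log2 -0.22, adjusted p = 0.014; GYS1, log2 -0.21, adjusted p = 0.0479, edgeR), and without WT library 3 PDP2 was called lower (adjusted p = 0.0493). In libraries 4 to 6 alone 17 were higher and 0 lower, with a term for the set 16 and 0, and by DESeq2 12 and 0. The 12 include 6 of the 9 members that fell with high glucose in CF cells, namely HK2, PFKFB3, PFKFB4, GAPDH, PGK1 and PDK1, but both comparisons use the same CF normal glucose libraries. The summed endothelial markers, nearly all CDH5, were also higher in CF cells, at 3.06 to 4.47 FPKM in CF normal glucose, against 2.05 to 2.62 FPKM in WT normal glucose. The summed epithelial markers were 1561 to 1718 FPKM in CF, against 1269 to 1487 FPKM in WT normal glucose, and the summed fibroblast markers 1.70 to 2.71 FPKM in CF, against 2.78 to 4.50 FPKM in WT normal glucose. None of these sums overlapped, and their part in the result was not tested. HK2 had 498 to 863 CPM (median 675) in CF normal glucose, against 313 to 479 CPM (median 392) in WT normal glucose, without overlap (log2 fold change 0.82, SE 0.14, adjusted p = 5.88e-05). PDK1 had 107 to 131 CPM (median 119) in CF normal glucose, against 81.97 to 102 CPM (median 87.1) in WT normal glucose, also without overlap (log2 fold change 0.43, SE 0.06, adjusted p = 8.62e-06). PFKFB4 (log2 0.43, adjusted p = 0.00734) and PFKFB3 (log2 0.54, adjusted p = 0.0225) overlapped between the lines, and the PFKFB3 call was lost without CF library 5 or 6 or WT library 3 (adjusted p up to 0.0717, edgeR).

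In high glucose, 5 members were higher and 1 was lower in CF cells (16.2% of the 37, where 19.9% of all genes were called and 9.35% were called higher). The count was 7 in libraries 1 to 3 alone (6 higher, 1 lower), 14 in libraries 4 to 6 alone (11 higher, 3 lower) and 11 with a term for the set (9 higher, 2 lower). The median log2 fold change was 0.05 over members and 0.01 over all genes. Endothelial markers summed to 3.26 to 4.17 FPKM in CF high glucose, against 1.86 to 2.45 FPKM in WT high glucose, and epithelial markers to 1479 to 1673 FPKM in CF, against 1211 to 1310.0 FPKM in WT high glucose. Neither overlapped, and their part in the result was not tested. The 5 members, which were also called in normal glucose, were ALDOC, GAPDH, PKM, LDHA and PGM1. ALDOC, the brain-type aldolase, had 17.2 to 24.996 CPM (median 20.39) in CF high glucose, against 9.84, 10.46, 11.1, 9.09 and 10.4 CPM in WT high glucose (log2 fold change 1.00, SE 0.12, adjusted p = 5.06e-07). In normal glucose it had 14.04 to 22.4 CPM (median 18.4) in CF cells, against 7.897 to 11.02 CPM (median 8.7003) in WT cells (log2 fold change 0.98, SE 0.12, adjusted p = 2.79e-07). Neither pair of groups overlapped, and ALDOC was 2.01-fold higher in CF in high glucose and 1.98-fold higher in normal glucose.

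GAPDH had 3342 to 3902 CPM (median 3503) in CF high glucose, against 2534, 2653, 2699.7, 2675 and 2437 CPM in WT high glucose (log2 fold change 0.45, SE 0.06, adjusted p = 1.24e-06), and 3641 to 4244 CPM (median 4032) in CF normal glucose, against 2816 to 3251 CPM (median 2952) in WT normal glucose (log2 0.43, adjusted p = 9.42e-07). LDHA, the lactate dehydrogenase subunit that favours lactate formation, had 1533 to 1801 CPM (median 1686) in CF high glucose, against 1374, 1471, 1493, 1352 and 1299 CPM in WT high glucose (log2 fold change 0.26, SE 0.07, adjusted p = 0.00504). In normal glucose LDHA had 1730.1 to 2158 CPM (median 1862) in CF cells, against 1318 to 1564 CPM (median 1509.8) in WT cells (log2 0.35, adjusted p = 8.39e-05). Neither gene overlapped between the lines at either glucose level. PGM1, a phosphoglucomutase that joins glycolysis and glycogen, had 125 to 137 CPM (median 128) in CF high glucose, against 101, 103, 107, 103 and 102 CPM in WT high glucose (log2 fold change 0.33, SE 0.07, adjusted p = 0.000376). In normal glucose the PGM1 ranges overlapped, with 109 to 146 CPM (median 127) in CF cells, against 93.2 to 115 CPM (median 103) in WT cells (log2 0.31, adjusted p = 0.000375). PKM differed by 0.19 in high glucose and 0.17 in normal glucose on the log2 scale, with overlap. Its call was lost without CF library 2 or WT library 4 or 5 in high glucose, and without WT library 1 or 6 in normal glucose (adjusted p up to 0.0777, edgeR). In normal glucose it was not called in libraries 1 to 3 alone either (adjusted p = 0.423).

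The 1 member lower in CF cells was MPC1, a subunit of the mitochondrial pyruvate carrier, with 2.09 to 3.41 CPM (median 2.5995) in CF high glucose, against 5.33, 3.82, 4.43, 4.26 and 3.67 CPM in WT high glucose (log2 fold change -0.69, SE 0.16, adjusted p = 0.00236). The groups did not overlap, at counts of 32 to 164 per library over the series. In normal glucose MPC1 had 1.89 to 3.75 CPM (median 2.91) in CF cells, against 2.34 to 3.76 CPM (median 3.49) in WT cells (log2 -0.24, adjusted p = 0.314). HK1 (log2 0.32, adjusted p = 0.00844), PGK1 (log2 0.22, adjusted p = 0.0215) and PDP1 (log2 0.27, adjusted p = 0.000207) completed the calls in normal glucose. In high glucose HK2 had 198 to 292 CPM (median 226) in CF cells, against 163, 225, 199, 212 and 231 CPM in WT cells (log2 0.18, adjusted p = 0.441), and PDK1 had log2 0.16, adjusted p = 0.106, so neither was called there. Ranges did not overlap for 5 members in high glucose (14.1% of all genes) and 6 in normal glucose (13.1% of all genes).

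**Figure D3:**
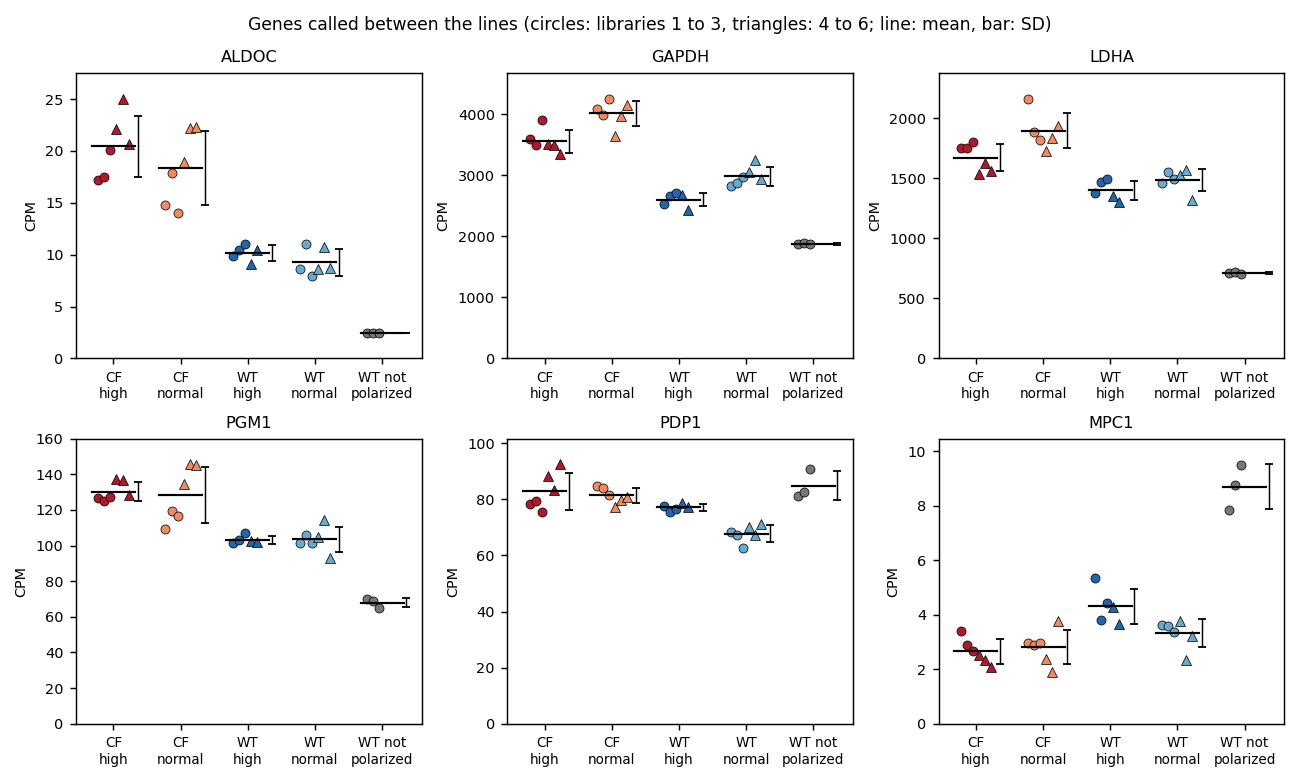
CPM (vertical axis, from 0) of 6 genes called between the lines, for each library of the 5 groups, with the mean as a line and the SD as a bar. ALDOC, GAPDH and LDHA are higher in CF than in WT cells at both glucose levels without overlap, and MPC1 has its highest values in WT not polarized.

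Most members differed between polarized and unpolarized WT cells in normal glucose. Both hexokinases, 6 of 7 upper and 7 of 7 lower glycolysis members were higher in polarized cells, and 4 of 6 members of pyruvate entry and oxidation were lower. Of 37 members, 24 were higher and 8 lower in the polarized cells (86.5% of members, where 50.0% of all genes were called, 26% higher and 23.9% lower). The median log2 fold change was 0.63 over members and 0.02 over all genes. Ranges did not overlap for 30 members, where 46.6% of all genes did so. All 9 members that fell with high glucose in CF cells were among the 24 of 37 that were higher. Most tested members were higher here, and the matching share over all genes was not computed. This overlap is therefore descriptive, and a link between the 2 comparisons was not tested. The unpolarized libraries are numbered 1 to 3, and whether they are separate cultures is not known. In libraries 1 to 3 alone, 25 members were higher and 9 lower. The called members kept their direction there, HK1 and PDK2 were not called, and 4 members were called that were not over all libraries: SLC16A1 (log2 0.33, adjusted p = 0.000103), MPC2 (log2 0.53, adjusted p = 0.000144) and PDHB (log2 0.29, adjusted p = 0.00214) higher and PFKM (log2 -0.25, adjusted p = 0.00454, edgeR) lower. The summed fibroblast markers, nearly all COL1A1, were 2.78 to 4.50 FPKM in polarized WT cells, against 1.41 to 1.54 FPKM in unpolarized cells. The summed epithelial markers overlapped, but single ones moved in opposite directions. KRT18 was lower in polarized cells (177 to 213 FPKM, against 316 to 322 FPKM in unpolarized cells). KRT19 (482 to 556, against 390 to 397 FPKM), CDH1 (135 to 164, against 112 to 115 FPKM) and KRT5 (8.02 to 11.9, against 5.42 to 6.37 FPKM) were higher. EPCAM, KRT8 and TP63 overlapped. The part of such shifts in the result was not tested.

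Summed over the 38 members, the level was 13898 ± 511 CPM in polarized WT cells (SD, n = 6), against 8700 ± 29.6 CPM in unpolarized WT cells (SD, n = 3). HK2 had 313 to 479 CPM (median 392) in polarized cells, against 120.2, 124 and 136 CPM in unpolarized cells (3.1003-fold; log2 fold change 1.63, SE 0.13, adjusted p = 2.94e-07). PFKFB4 showed the largest fold change of the called members, with 26.9 to 34.5 CPM (median 31.4) in polarized cells, against 7.85, 8.02 and 8.11 CPM in unpolarized cells (3.96-fold; log2 fold change 1.99, SE 0.10, adjusted p = 2.36e-09). ALDOC had 7.897 to 11.02 CPM (median 8.7003) in polarized cells, against 2.47, 2.41 and 2.48 CPM in unpolarized cells (log2 fold change 1.94, SE 0.16, adjusted p = 2.72e-07). PDK1 had 81.97 to 102 CPM (median 87.1) in polarized cells, against 29.4, 30.4 and 29.8 CPM in unpolarized cells (log2 fold change 1.60, SE 0.08, adjusted p = 2.77e-09). None of these overlapped.

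All 7 members of lower glycolysis were called higher in polarized cells. PGK1 had 696 to 886 CPM (median 773) in polarized cells, against 336, 332 and 329.8 CPM in unpolarized cells (log2 fold change 1.24, SE 0.08, adjusted p = 1.72e-08). The neuronal-type enolase ENO2 had 72.6 to 104 CPM (median 87.6) in polarized cells, against 28.9, 33.4 and 29.8 CPM in unpolarized cells (log2 fold change 1.56, SE 0.12, adjusted p = 1.17e-07). GAPDH, PGAM1, ENO1, ENO3 and PKM rose by 0.45 to 0.69 on the log2 scale. In upper glycolysis 6 of 7 were called higher: PFKL had 433 to 467 CPM (median 449) in polarized cells, against 256, 248 and 251 CPM in unpolarized cells (log2 fold change 0.85, SE 0.06, adjusted p = 4.40e-08), GPI had log2 0.68, adjusted p = 9.22e-07, and ALDOA, TPI1 and PFKP rose by 1.05, 0.74 and 0.46 on the log2 scale. PFKM was not called over all libraries (log2 -0.14, adjusted p = 0.151).

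Members at the pyruvate branch point went both ways. LDHA had 1318 to 1564 CPM (median 1509.8) in polarized cells, against 711, 719 and 705 CPM in unpolarized cells (log2 fold change 1.08, SE 0.07, adjusted p = 2.43e-08), and SLC16A3 (MCT4), the lactate exporter of glycolytic cells, rose by 0.95 on the log2 scale (adjusted p = 3.83e-06, edgeR). LDHB, whose subunits favour lactate oxidation, was lower, with 9.02 to 13.5 CPM (median 10.4) in polarized cells, against 19.5, 17.6 and 18.8 CPM in unpolarized cells (log2 -0.79, adjusted p = 8.88e-05). MPC1 was lower too, with 2.34 to 3.76 CPM (median 3.49) in polarized cells, against 7.85, 8.77 and 9.47 CPM in unpolarized cells (log2 fold change -1.38, SE 0.15, adjusted p = 4.62e-06). PDHA1, the catalytic alpha subunit of pyruvate dehydrogenase (log2 -0.34, adjusted p = 0.000565), and the activating phosphatases PDP1 (log2 -0.31, adjusted p = 0.00136) and PDP2 (log2 -0.53, adjusted p = 0.00028) fell. The kinases PDK1, PDK2 (log2 0.21, adjusted p = 0.0436) and PDK3 (log2 1.05, adjusted p = 6.05e-06) rose. Of the 9 fits that left out 1 library, the PDK2 call was held only without polarized library 1 or 2 (adjusted p up to 0.154 in the others, edgeR). The carrier subunit MPC2, the pyruvate dehydrogenase beta subunit PDHB and SLC16A1 were not called over all libraries but were higher in libraries 1 to 3 alone, as given above, so that 2 of the 6 members of pyruvate entry and oxidation went against the 4 that fell.

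Of the 4 glycogen members, 2 were higher and 2 lower in polarized cells. The synthase GYS1 had 77.9 to 92.1 CPM (median 86.3) in polarized cells, against 52.4, 51.9 and 55.5 CPM in unpolarized cells (log2 fold change 0.70, SE 0.07, adjusted p = 3.85e-06), and PGM1 rose by 0.62 on the log2 scale. Both phosphorylases fell. PYGB had 82.7 to 94.7 CPM (median 90.5) in polarized cells, against 169, 173 and 169.6 CPM in unpolarized cells (log2 fold change -0.92, SE 0.06, adjusted p = 3.14e-08), and PYGL had 141 to 170.3 CPM (median 153), against 189.5, 187 and 189 CPM in unpolarized cells (log2 -0.27, adjusted p = 0.00544). PFKFB2, the heart-type isoform, moved against PFKFB3 (log2 1.25, adjusted p = 1.60e-05) and PFKFB4, with 26.4 to 41.4 CPM (median 35.6) in polarized cells, against 68.2, 65.8 and 59.2 CPM in unpolarized cells (log2 -0.86, adjusted p = 7.41e-05). The HK1 call (log2 0.23, adjusted p = 0.0496) was held only without polarized library 2 or 3 among the 9 such fits (adjusted p up to 0.138 in the others, edgeR).

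Shares of paired isoforms, computed per length from FPKM and given with no test, set the family members side by side. HK2 made up 64.7% ± 2.72 of summed HK1 and HK2 in CF high glucose, 84.2% ± 1.79 in CF normal glucose, 64.7% ± 2.496 in WT high glucose, 79.3% ± 1.81 in WT normal glucose and 59.3% ± 1.77 in unpolarized WT cells (SD, with n = 6, 6, 5, 6 and 3 libraries). PFKFB2 made up 27.7% ± 3.05 of PFKFB2, PFKFB3 and PFKFB4 in CF high glucose, 18.8% ± 2.19 in CF normal glucose, 30.3% ± 4.05 in WT high glucose, 22.9% ± 2.56 in WT normal glucose and 60.8% ± 2.57 in unpolarized WT cells. PDK1 made up 44.8% ± 1.45 of PDK1 to PDK4 in CF high glucose, 56.01% ± 2.15 in CF normal glucose, 41.8% ± 2.38 in WT high glucose, 45.97% ± 1.84 in WT normal glucose and 28.8% ± 0.796 in unpolarized WT cells. The HK2 share was thus lower in high than in normal glucose in both lines, and CF and WT cells in high glucose had the same mean share to 3 digits. LDHB made up 1.47% ± 0.195 of LDHA and LDHB in polarized WT cells, against 5.17% ± 0.291 in unpolarized WT cells. PYGB made up 38.2% ± 1.56 of the 2 phosphorylases in polarized cells, against 49.2% ± 0.428 in unpolarized cells. The levels of LDHB and PDK2 are uncertain because of exonic bases shared with other genes, as given above. The size of the LDHB share and of the PDK1 share, whose sum includes PDK2, is therefore uncertain too.

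**Figure D4:**
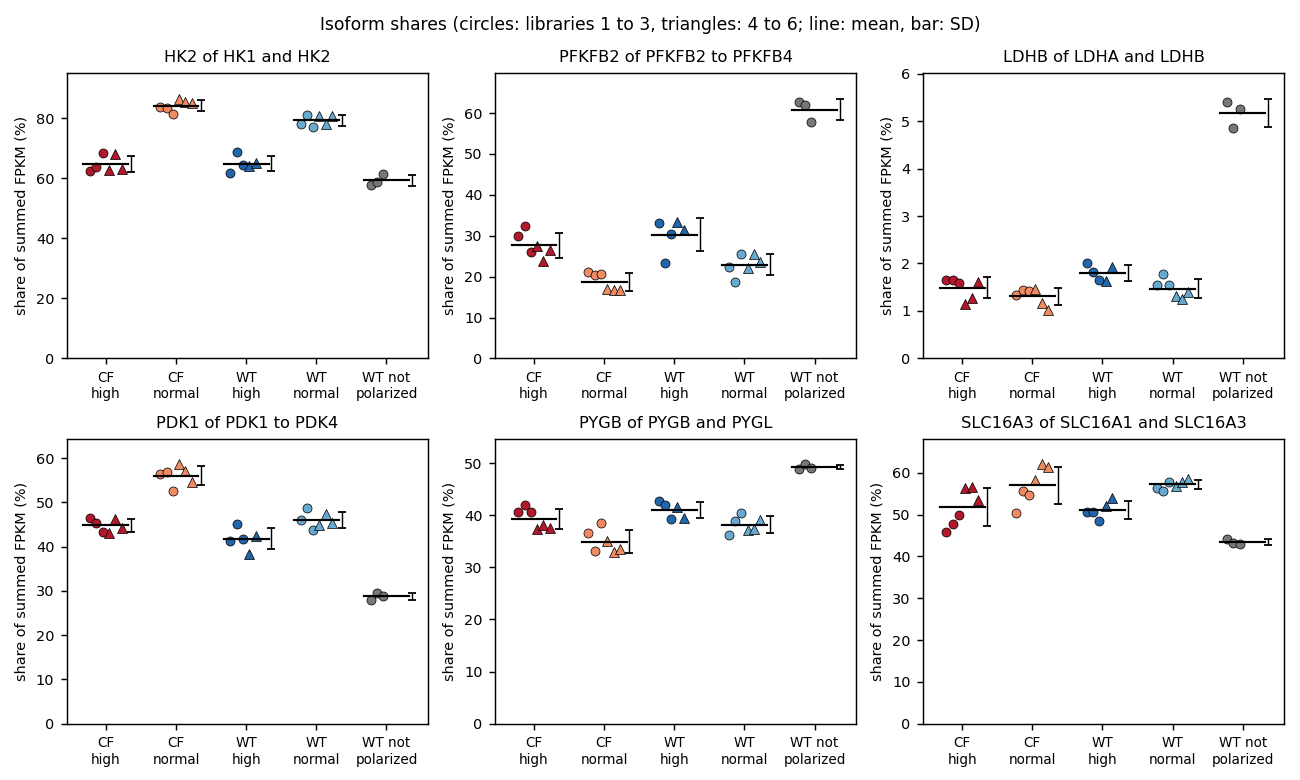
Share of an isoform in the summed FPKM of its family (percent, vertical axis from 0), for each library of the 5 groups, with the mean as a line and the SD as a bar. The HK2 share is 61.8 to 68.7% in the high glucose groups and 77.0 to 86.3% in the normal glucose groups of polarized cells, and the PFKFB2 share is highest in WT not polarized.

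Over the 5 comparisons and the interaction, 6 members were called in none: PFKM, TIGAR, SLC16A1, MPC2, PDHB and the untested PDK4. TIGAR, a fructose bisphosphatase induced by p53, had 9 to 44 counts per library, which limits what could be seen. SLC16A1 (MCT1) had 219 to 304 CPM (median 259.7) in CF high glucose, against 201 to 260.3 CPM (median 225) in CF normal glucose (log2 0.22, adjusted p = 0.262), and 279, 295, 298, 225 and 212 CPM in WT high glucose, against 186 to 269.6 CPM (median 213) in WT normal glucose (log2 0.26, adjusted p = 0.262). Libraries 1 to 3 lay above libraries 4 to 6 in each of these groups but CF normal glucose, where they met. With a term for the set it was called higher in high glucose in both CF (adjusted p = 0.00254) and WT cells (adjusted p = 0.00326, edgeR). ENO2 in CF cells had 56.7 to 119 CPM (median 85.4) in high glucose, against 74.002 to 163 CPM (median 128) in normal glucose, with libraries 1 to 3 below libraries 4 to 6 in both. It was not called over all libraries (adjusted p = 0.142) and was called lower with the term (adjusted p = 0.0066, edgeR). ENO2 was singled out here after its values were seen.

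Of 62 other genes of the same pathways, chosen by name with earlier results known, 41 were tested in the glucose and line comparisons and 42 against the unpolarized cells. In high glucose 0 rose and 1 fell in WT cells, and 3 rose and 3 fell in CF cells. These are 2.44% of the tested pathway genes in WT cells, against 2.95% of all genes, and 14.6% in CF cells, against 8.41% of all genes. The gene that fell in both was PPP1R3G, which targets protein phosphatase 1 to glycogen and activates glycogen synthase. It had 9.599 to 17.1 CPM (median 11.99) in CF high glucose, against 17.6 to 23.8 CPM (median 21.5) in CF normal glucose (log2 fold change -0.69, SE 0.12, adjusted p = 0.000502), and 8.14, 11.7, 8.98, 8.99 and 8.94 CPM in WT high glucose, against 11.8 to 15.7 CPM (median 13.6) in WT normal glucose (log2 fold change -0.54, SE 0.13, adjusted p = 0.0197). Neither pair overlapped. Its sister subunit PPP1R3B (log2 -0.46, adjusted p = 0.00419) and the glycogen branching enzyme GBE1 (log2 -0.26, adjusted p = 0.0148) also fell in CF cells. PPP1R3D (log2 0.25, adjusted p = 0.03), the glycogenin GYG1 (log2 0.31, adjusted p = 0.0362) and the glucose 6-phosphate transporter SLC37A4 (log2 0.26, adjusted p = 0.0163) rose there. None of the 41 tested was called in the interaction by edgeR, where 4 had an unadjusted p under 0.05.

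Between the lines, 7 of these genes were higher and 9 lower in CF in normal glucose, and 5 higher and 5 lower in high glucose. These are 39.0% of those tested in normal glucose, against 24.4% of all genes, and 24.4% in high glucose, against 19.9% of all genes. EMB (embigin), a chaperone of monocarboxylate transporters, had 16.7 to 25.9 CPM (median 21.4) in CF normal glucose, against 50.7 to 68.8 CPM (median 60.7) in WT normal glucose (log2 fold change -1.49, SE 0.12, adjusted p = 7.15e-10), and differed by -1.57 in high glucose. SLC16A7 (MCT2) had no count in the 6 CF normal glucose libraries, against 0.268 to 0.871 CPM (median 0.559) in WT normal glucose. It was at least 18.7-fold lower in CF, taking 3 counts over the group as the floor, which covers counting error only. GYG2, the liver glycogenin, had 0.983 to 2.84 CPM (median 2.07) in CF normal glucose, against 4.68 to 6.13 CPM (median 5.62) in WT normal glucose (log2 fold change -1.51, SE 0.22, adjusted p = 8.45e-06). GBE1 was higher in CF at both glucose levels (log2 0.34 in high and 0.59 in normal glucose), and PPP1R3B differed by -0.84 in high and -0.34 in normal glucose. PPP1R3G was higher in CF at both glucose levels (log2 0.47 in high and 0.62 in normal glucose).

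Against the unpolarized cells, 14 of these genes were higher and 11 lower in polarized WT cells, which is 59.5% of the 42 tested, where 50.0% of all genes were called. PPP1R3G had 11.8 to 15.7 CPM (median 13.6) in polarized cells, against 2.97, 2.67 and 3.405 CPM in unpolarized cells (log2 fold change 2.19, SE 0.14, adjusted p = 1.72e-08), and PPP1R3C had 8.496 to 14.8 CPM (median 11.996) in polarized cells, against 3.08, 3.42 and 4.02 CPM in unpolarized cells (log2 fold change 1.77, SE 0.18, adjusted p = 2.06e-06). GAA, the lysosomal enzyme that degrades glycogen, rose by 1.11 on the log2 scale (adjusted p = 4.62e-09, edgeR). DLAT, the acetyltransferase subunit of the pyruvate dehydrogenase complex, fell (log2 -0.57, adjusted p = 1.73e-05), as its partner PDHA1 did. The mitochondrial phosphoenolpyruvate carboxykinase PCK2 had 52.3 to 62.5 CPM (median 57.1) in polarized cells, against 112, 115 and 116 CPM in unpolarized cells (log2 fold change -0.997, SE 0.07, adjusted p = 4.20e-08). The phosphorylase kinase subunit PHKB (log2 -0.67, adjusted p = 1.92e-06) and the glycogenins GYG1 (log2 -0.71, adjusted p = 4.34e-06) and GYG2 (log2 -0.96, adjusted p = 1.27e-05) fell.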

How the data were processed

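RNA was captured with poly-T oligos and sequenced. Reads were aligned with HISAT2 to hg38, per the submitters' processing notes, and no source used here gives versions, the counter or its strand setting. The authors deposited raw counts per gene and FPKM values for 58735 genes, of which 58724 stand at their GENCODE 29 position. Libraries held 14658319 to 20413839 counts, so the precision of low genes is limited. Counts were tested with edgeR 4.0.16 in R 4.3.3 (TMM factors, filterByExpr with a minimum count of 10 and total of 15, robust quasi-likelihood fit), and p-values were Benjamini-Hochberg adjusted over all tested genes and called under 0.05. The 23 libraries of polarized cells shared 1 fit with 4 group means, and polarized against unpolarized WT cells had a fit of their own. CPM use the TMM-adjusted library size, and FPKM served for levels between genes.

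The members and gene lists were chosen with earlier results of these data known. The text names the called members (the 12 with the lowest p where more were called, and those called in the other line), 12 members fixed by name, and up to 8 called pathway genes per comparison. Others were named after their values were seen. Groups follow the labels. Shared replicate numbers were not taken as pairs. Residuals of same-numbered libraries had a mean r of 0.202 (WT glucose) and 0.233 (CF glucose). For different numbers of the same set it was 0.198 and 0.212. Only 1 of 5 (WT) and 2 of 6 (CF) high glucose libraries were most alike to the normal glucose library of their own number. The main fit has no term for the set. No 2 libraries of a group agreed within sampling noise, for which chi-square per degree of freedom is near 1. It was 1.95 to 2.19 between the unpolarized libraries and 2.36 to 49.5 between the CF normal glucose libraries. The fits were checked on simulated data. Alternatives were DESeq2 1.42.0, RLE factors, other filters, limma-trend (3.58.1) on log2(FPKM + 1), a block or term for library numbers, and each library left out. Promoter windows came from RefSeq.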

Additional observations from a re-analysis of the deposited data

Results flagged for a closer look

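PDK4, the starvation-induced pyruvate dehydrogenase kinase, was marked in 2 of the 152 member and group combinations examined for a library far from the others. CF high glucose library 5 had 0.0672 CPM and WT normal glucose library 4 had 0.0544 CPM, each from a single count where the other libraries of the group had none. For continuous, normally distributed values chance marks about 1 in 20 such groups. That rate does not apply to PDK4, since any group with counts in a single library is marked.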

How the results depend on the processing

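Counts of called members depended most on how libraries numbered 1 to 3 and 4 to 6 were treated. For glucose in WT cells (5 called) the count was 3 with limma-trend on log2(FPKM + 1) without a filter, 9 with the replicate block, 12 with a term for the number set, 2 in libraries 1 to 3 and 10 in libraries 4 to 6. For glucose in CF cells (10 called) it was 15 with the replicate block and 16 in libraries 4 to 6. The interaction (0 called) gave 1 with the number-set term, HK2, and 3 in libraries 4 to 6. Between the lines in high glucose (6 called) the count was 11 with the replicate block, 11 with the number-set term and 14 in libraries 4 to 6. In normal glucose (12 called) and against unpolarized cells (32 called) the replicate block gave 15 and 34. Leaving out 1 library gave 3 to 4 (WT glucose), 7 to 10 (CF glucose), 0 to 0 (interaction), 11 to 14 (lines, normal glucose), 5 to 7 (lines, high glucose) and 30 to 32 (polarized). The WT glucose count was 3 without high glucose library 1, 3, 4 or 5 or normal glucose library 1, 2, 4, 5 or 6. Calls held under every alternative were 2 of 5, 5 of 10, 9 of 12, 5 of 6 and 30 of 32 in the same order, without the interaction. Of the called members, none changed sign under any alternative. Among uncalled members, those that changed sign and were called in an alternative were SLC16A3 and PYGB. SLC16A3 in normal glucose was -0.22 in libraries 1 to 3 (adjusted p = 0.0141, edgeR), and PYGB in high glucose was -0.17 in libraries 4 to 6 (adjusted p = 0.0469), both CF minus WT. Other values of uncalled members changed sign without a call: 34 (WT glucose), 38 (CF glucose), 104 (interaction), 18 (lines, normal glucose) and 80 (lines, high glucose). The cause was not tested. Libraries 4 to 6 alone could not be fitted for the unpolarized cells, which have 3 libraries. Low counts limit TIGAR and PDK4, and the level of TIGAR is also uncertain because of its shared exonic bases.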
